A study of Mus musculus with 6 samples.

Results

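Within 1 library of mouse lung epithelial cells, the cells rich in the transcript of Retnla were compared with the cells nearly without it. Retnla encodes resistin-like alpha, a small secreted protein, and the cells were chosen by its measured share of their UMIs, so that share supports no result here. The library is called C here, because its barcode prefix is the third to appear in the deposited matrix. Cells were taken with at least 1000 UMIs (unique molecular identifiers, one per captured transcript) and with no UMI of Mki67, Top2a, Cdk1 or Ccnb1, which mark dividing cells. Of the 14623 barcodes of library C, 29 had fewer UMIs and 3461 had a UMI of one of these 4 genes, which left 11133 cells. Retnla-high cells had at least 0.5% of their UMIs from Retnla, and Retnla-low cells under 0.1%. There were 5900 Retnla-high cells (53% of the 11133, exact Clopper-Pearson 95% interval 52.1 to 53.9) and 4789 Retnla-low cells (43.0%, 42.1 to 43.9). The other 444 cells (3.99%) lay between the limits. Together the classes held 10689 of the 36584 barcodes of the whole series.

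The question of the study, per its title, was how age alters what interleukin 4 (IL-4) does to alveolar type II (ATII) cells. Per the labels, there were 3 expression libraries: day 0 cells, freshly sorted, pooled from both ages; day 13 cultures, also from both ages; and day 13 cultures from young animals alone. All had the genotype IL4Ra WT and a treatment given as mixed sample, and a matching tag library existed for each. The cultures were alveolarspheres grown without serum or feeder cells, and per the design text 10 ng/ml of the cytokine was added on day 3, with PBS as the control. The cytokine is IL-4 in the title but carries another interleukin number in the design text. Per the labels, the libraries of both ages and the mixed samples are pools, and the ages of the mice in weeks are not given in the sources used here. No barcode prefix matches a label, so library C was assigned to no day, age or treatment. A Retnla-high cell is therefore not known to be a cell that received the cytokine.

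IL-4 and the related IL-13 act through receptors that share the IL-4 receptor alpha chain, and Janus kinases bound to these receptors phosphorylate the transcription factor STAT6. Phosphorylated STAT6 enters the nucleus as a dimer and binds palindromes made of TTC and GAA around a short spacer. Retnla is among the best known mouse genes switched on in this way, in macrophages and in airway and alveolar epithelium, together with chitinases and chitinase-like proteins. ATII cells make lung surfactant and are stem cells of the alveolus. They pass through a keratin-rich transitional state on the way to flat type I cells.

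Promoters of Retnla and of 3 genes named below are shown because their windows hold such palindromes. The 3 are all higher in Retnla-high cells, and other genes with a match, some of them lower, are not shown. Each is the RefSeq sequence of GRCm38.p6 from 250 bases before to 50 bases after the annotated start, 5′ to 3′ on the strand of the gene. Capitals mark every TTCNNNNGAA or TTCNNNGAA, which are palindromes and so read alike on both strands. Windows are chr16:48842359-48842658 (plus strand) for Retnla, chr3:106219430-106219729 (minus strand) for Chil4, chr19:29924863-29925162 (plus strand) for 1 of the annotated starts of Il33, and chr3:92285054-92285353 (plus strand) for Sprr2a3.
Retnla: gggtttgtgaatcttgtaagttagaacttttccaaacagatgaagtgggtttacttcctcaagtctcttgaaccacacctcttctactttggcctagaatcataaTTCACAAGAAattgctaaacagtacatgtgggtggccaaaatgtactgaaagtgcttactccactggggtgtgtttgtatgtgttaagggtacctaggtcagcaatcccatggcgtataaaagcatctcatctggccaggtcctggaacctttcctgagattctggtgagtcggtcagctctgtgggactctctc
Chil4: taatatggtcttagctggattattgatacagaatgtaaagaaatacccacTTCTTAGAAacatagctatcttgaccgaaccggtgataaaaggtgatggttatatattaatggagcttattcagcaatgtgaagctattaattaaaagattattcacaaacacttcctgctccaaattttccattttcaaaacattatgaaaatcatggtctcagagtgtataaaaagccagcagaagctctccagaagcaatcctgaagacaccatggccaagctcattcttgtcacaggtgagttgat
Il33: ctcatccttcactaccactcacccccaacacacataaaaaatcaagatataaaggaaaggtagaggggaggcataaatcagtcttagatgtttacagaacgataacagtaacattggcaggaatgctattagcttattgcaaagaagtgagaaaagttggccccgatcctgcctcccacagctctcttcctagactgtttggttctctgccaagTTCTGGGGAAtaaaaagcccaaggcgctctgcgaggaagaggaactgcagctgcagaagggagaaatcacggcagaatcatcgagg
Sprr2a3: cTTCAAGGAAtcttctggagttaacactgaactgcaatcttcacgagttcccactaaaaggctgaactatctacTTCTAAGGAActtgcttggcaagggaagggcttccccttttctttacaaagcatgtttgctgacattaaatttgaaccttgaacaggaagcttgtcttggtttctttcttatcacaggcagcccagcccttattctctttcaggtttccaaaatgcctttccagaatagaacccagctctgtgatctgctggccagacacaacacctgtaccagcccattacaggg
The Retnla window held TTCACAAGAA starting 145 bases before the start site, and the Il33 window TTCTGGGGAA 36 bases before it, both with the 4-base spacer. The Chil4 window held TTCTTAGAA, with the 3-base spacer, 200 bases before the start. The Sprr2a3 window held both kinds, TTCTAAGGAA at 176 and TTCAAGGAA at 249 bases before the start. Over all 32851 promoters of the RefSeq table, 6.95% held TTCNNNNGAA and 8.30% held TTCNNNGAA. Counted per gene, with a match in any of its windows, 8.01% and 9.55% of the 27025 genes of that table did. The shares that follow are also per gene. Among genes higher in Retnla-high cells (defined below), 7 of the 86 with a window held the first (8.14%) and 12 held the second (14.0%). Among genes lower, 6 of 92 (6.52%) and 5 of 92 (5.43%) did, and among all 3652 measured genes with a window 6.22% and 7.91%. Named genes that were lower also had matches: the Lgals3 window held TTCTGCGGAA and TTCAGGTGAA, and the Gsta1 window TTCAGGGAA. Mob3b and 1 of the annotated starts of Fcer2a, both higher, had matches too. The windows of Chia1, Slc26a4, Hdc, Il4i1 and Rgs4 held neither, which says only that these letters are not in those windows. A match is a description of letters and not a binding site, and no test was run on these shares.

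The 3 libraries held 63658436, 48677816 and 53372634 UMIs for A, B and C, with medians of 3749, 8348.5 and 3336 UMIs per barcode. Libraries A and B shared 20 barcode sequences, A and C 67, and B and C 22. In library C the classes were close in depth: the median Retnla-high cell had 3275 UMIs and 1108 genes, and the median Retnla-low cell 2967 UMIs and 1066 genes. Mitochondrial transcripts were 0.661% of summed UMIs in Retnla-high and 0.635% in Retnla-low cells. All values below are counts summed over the cells of a class, per 1000000 UMIs other than Retnla (CPM), from 19432244 such UMIs in the high class and 14936093 in the low class. Intervals in brackets are exact 95% Poisson intervals, which cover counting error only.

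Both classes carried the defining transcripts of the labelled cell type. Sftpc, surfactant protein C, stood at 136175 CPM in Retnla-high and 113261 CPM in Retnla-low cells. Sftpb was at 2191 and 2124 CPM, Napsa, a surfactant-processing protease, at 1030 and 1135 CPM, and Lamp3, a lamellar body protein, at 320 and 369 CPM. The 10 ATII markers chosen for this check were thus present in both classes. Of 12 alveolar macrophage markers 5 had 0 counts in both classes, among them Marco, Siglecf, Ear2 and the pan-leukocyte Ptprc. The list summed to 82.2 CPM in high and 330 CPM in low cells, most of it Lyz2, which ATII cells also make, and without Lyz2 to 21.0 and 16.5 CPM. Car4 and Chil3, also on this list, had counts almost only in the high class, as given below. The 12 monocyte and interstitial macrophage markers summed to 13.4 and 9.64 CPM, with 6 at 0 in high and 7 at 0 in low cells, Adgre1 in both. The part of such cells in the results was not tested.

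Retnla itself, by which the classes were made, took a median of 3.79% of a Retnla-high cell's UMIs, from 0.5% to 15.6%. It made up 40329 per 1000000 of all summed UMIs of the high class and 197 per 1000000 in the low class, where 2579 of 4789 cells had no Retnla UMI. The gene lies at chr16:48842551-48844461 on the plus strand (GRCm38).

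**Figure D1:**
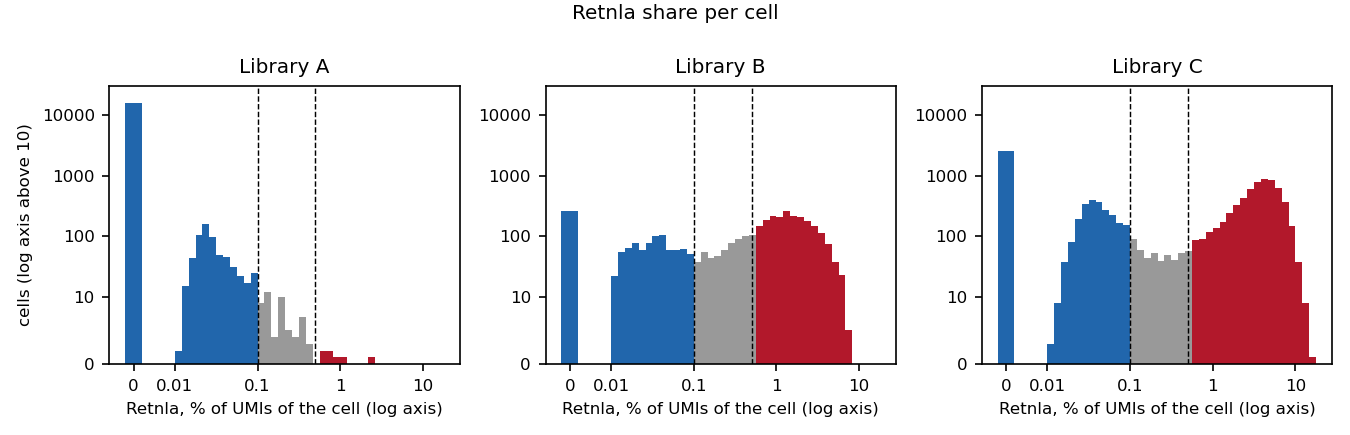
Cells passing the filters in libraries A, B and C by the share of their UMIs from Retnla (x axis, log scale in percent, with cells at 0 in a bar of their own; y axis, number of cells, log scale above 10), with dashed lines at 0.1% and 0.5%, blue bars under the lower line, red above the upper line and grey between or across the upper line. In library C the 444 cells between the lines lie in a dip between larger low and high groups, while library A has 7 cells above the upper line.

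The 179 cells just under the low limit (0.08 to 0.1%) had Slc26a4 at 51.6 CPM, Socs2 at 71.0, Chia1 at 222 and Krt19 at 686 CPM, and the 84 just over it (0.1 to 0.12%) had 46.8, 65.5, 140 and 748 CPM. The 67 cells just under the high limit (0.4 to 0.5%) had 103, 117, 544 and 446 CPM, and the 65 just over it (0.5 to 0.6%) had 132, 122, 778 and 446 CPM. Hdc was at 17.2 and 9.35 CPM under and over the low limit, and at 23.5 and 63.6 CPM under and over the high limit. These bands lie inside and outside the classes by a few Retnla UMIs per cell, with medians of 2, 3, 13 and 16.

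A gene was called measured with at least 20 CPM in either class, and called higher or lower in Retnla-high cells with a log2 fold (high over low, 1 CPM added to each) of at least 1 in size. Of 4617 measured genes 114 (2.47%) were higher and 129 (2.79%) lower, and the median log2 fold of all measured genes was -0.03. No test was run, because all cells come from 1 library and cells are not replicates. A gene that reached 20 CPM in only 1 class could be called in the direction of that class alone. The counts of genes called per list below are therefore a description.

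Among known targets of IL-4 and IL-13, most measured genes were higher in Retnla-high cells. Of the 12 measured genes of that list, 8 were higher and 0 lower, with a median log2 fold of 1.76 against -0.03 over all measured genes. The 8 include 3 genes by which the comparison was proposed (Slc26a4, Socs2 and Chia1). Fcer2a and Il4i1, also among the 8, were measured only because they reached 20 CPM in the high class. The count is therefore not independent evidence of a direction.

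Chia1, acidic mammalian chitinase, degrades chitin and is a product of epithelium exposed to type 2 cytokines. It lies at chr3:106113229-106132120 on the plus strand. Its level was 1735 CPM (1716 to 1754) in Retnla-high cells and 26.3 CPM (23.8 to 29.0) in Retnla-low cells, a log2 fold of 5.99. After thinning each cell to 900 UMIs other than Retnla, 43.5% of Retnla-high and 1.67% of Retnla-low cells had a Chia1 UMI (59.4% and 3.45% without thinning). Chil4 (chr3:106201490-106219507, minus strand), a secreted chitinase-like protein, followed the same split, at 3699 (3672 to 3727) and 60.7 (56.8 to 64.8) CPM, a log2 fold of 5.91. Chil4 has a near-identical copy in Chil3, which had 28 and 1 counts, so how reads were divided between them is uncertain. Chil1, another chitinase-like protein and common in ATII cells, was at 8158 and 2511 CPM, a log2 fold of 1.70. Chid1, a lysosomal member of the family, was at 28.3 and 20.8 CPM, so that 3 of 4 measured chitinase-family genes were higher.

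Slc26a4 encodes pendrin, an anion exchanger of the apical membrane. It lies at chr12:31519827-31559969 on the minus strand and was at 221 CPM (214 to 227) against 49.8 CPM (46.3 to 53.5), a log2 fold of 2.12. Socs2, a feedback inhibitor of cytokine receptor signalling (chr10:95385362-95417180, minus strand), was at 209 CPM (203 to 216) against 67.2 (63.1 to 71.4), a log2 fold of 1.63. Both transcripts were thus found in the low class as well. After thinning, 16.5% of high and 3.65% of low cells had a Slc26a4 UMI (39.8% and 12.4% without thinning), and 17.1% and 5.47% a Socs2 UMI (44.2% and 17.7%).

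The other 4 genes of the list past the limit were of several kinds. Fcer2a, the low-affinity receptor for immunoglobulin E, was at 29.9 and 5.42 CPM (log2 fold 2.27). Hdc, the enzyme that makes histamine from histidine, was at 133 and 33.7 CPM (1.95). Il4i1, a secreted amino acid oxidase named for its induction by IL-4, was at 21.5 and 5.09 CPM (1.89), and Il33, an alarmin cytokine stored in epithelial nuclei, at 287 and 107 CPM (1.41). On the receptor side, among 4 measured genes of the receptor, Janus kinase and STAT list 0 were past the limit, and their log2 folds had both signs, with a median of 0.06. Il4ra, the receptor chain itself, was at 21.6 and 11.8 CPM (0.82, interval of the count ratio 0.61 to 1.13) and Jak1, one of its kinases, at 36.9 and 30.1 CPM (0.29). Stat6 had 152 and 122 counts, too few to be measured by the 20 CPM rule. Several genes of the response in macrophages or airway goblet cells were at 0 counts in both classes, among them Clca1, Muc5ac, Ccl11, Ccl24, Alox15 and Postn. Arg1, an arginase of macrophages responding to IL-4, had 30 counts in the high and 2 in the low class.

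Feedback genes beside Socs2 did not reach the limit over all cells of both classes. Pim1, a kinase induced by STAT proteins, was at 35.0 and 17.7 CPM (0.95), Pim3, a related kinase, at 49.1 and 28.9 CPM (0.75), and Cish, a feedback protein of the same family as Socs2, at 24.7 and 15 CPM (0.68). Of the 4 measured genes of that list 1 was higher and 0 lower, with a median of 0.85.

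Levels were also read over 7 bins of Retnla share, which splits each class and shows the cells between. Chia1 was at 13.4 CPM in the 2579 cells without Retnla, 40.5 in the 2210 cells above 0 and up to 0.1%, 402 in the 444 cells between the limits, and 774, 751, 1250 and 2486 CPM in cells of 0.5 to 1%, 1 to 2%, 2 to 4% and at least 4%. Socs2 went through 65.5, 69.0, 95.1, 112, 148, 187 and 255 CPM in the same order, and Slc26a4 through 48.6, 51.2, 84.0, 120, 179, 198 and 261 CPM. Within the Retnla-high class, both genes were thus higher in each successive bin, although intervals of some neighbouring bins overlap. Hdc ran differently: it was at 33.2 and 34.2 CPM in the low bins, 20.6 CPM between the limits, and 64.2, 80.5, 135 and 153 CPM in the high bins. The bins hold 332, 732, 2143 and 2693 cells within the high class, and because Retnla and these genes come from the same cells, the order is a description.

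Krt19, a keratin of transitional cells, was level at 600, 602 and 624 CPM up to the upper limit and then at 391, 229, 173 and 164 CPM. Mt1, a metal-binding metallothionein, was highest in the cells between the limits, at 3062 CPM, against 2324 and 2446 CPM in the low bins and 2104, 919, 530 and 362 CPM in the high bins. Lyz2, a lysozyme made by ATII cells and macrophages, was at 324 and 302 CPM in the low bins and only 67.3 CPM between the limits, and 132, 77.5, 63.3 and 47.1 CPM in the high bins. Of the 15 genes named below at the high end, all 15 lay between the class levels in the 444 cells, and all 15 were higher in the last bin than in the first of the high class. Of the 15 at the low end, 9 lay between the class levels in these cells and 6 were at or above both, and all 15 were lower in the last bin than in the first of the high class. These genes were chosen by their fold between the same classes, and the same counts were not made over all measured genes. The counts are therefore a description and support no result.

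**Figure D2:**
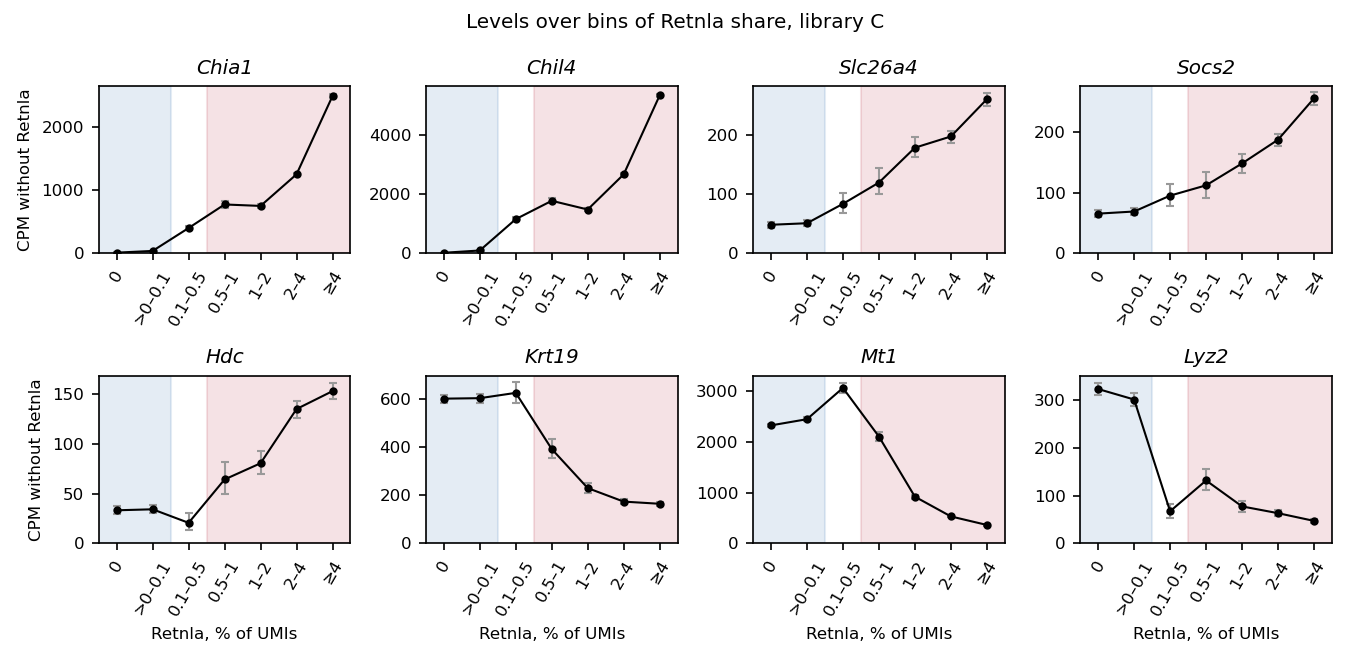
CPM without Retnla (y axis) of 8 genes over 7 bins of Retnla share (x axis, percent of UMIs) in library C, with exact 95% Poisson intervals, blue shading for the low class and red for the high class. Slc26a4 and Socs2 are higher in each successive bin from 0.1% on, Krt19 is level at 600 to 624 CPM below the upper limit, and Mt1 peaks at 3062 CPM in the unshaded bin between the limits.

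Beyond the response list, the highest folds were sought among genes with at least 50 CPM in either class and the same direction past the limit in shallow and in deep cells. After Chia1 and Chil4 came Rgs4, a regulator that shortens G-protein signalling, at 240 and 4.55 CPM (log2 fold 5.44). Sprr2a3, a small proline-rich protein of the epithelial envelope with near copies in its cluster, was at 239 and 11.2 CPM (4.29), and Fxyd4, a regulator of the sodium pump, at 270 and 19.9 CPM (3.70). Fetub, a secreted protease inhibitor, was at 188 and 19.1 CPM (3.24), Cldn10, a tight junction protein that forms ion pores, at 99.7 and 11.6 CPM (3.0), and Mob3b, a kinase adaptor, at 59.0 and 13.3 CPM (2.07). These genes belong to no single pathway on the lists used.

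Bpifb5, of the family of bactericidal permeability-increasing proteins, was at 75.3 and 8.24 CPM (3.05), and C3, the central complement component, at 67.0 and 14.7 CPM (2.12). Hc, complement component C5, was at 22.8 and 3.48 CPM (2.41), and is counted below with the surfactant and ATII genes. The 7 measured acute phase and complement genes did not go one way: 2 were higher (C3 and Cd14) and 2 lower, with a median of 0.32. The lower ones were Saa3, serum amyloid A3, at 4.37 and 45.4 CPM (-3.11), and Hp, haptoglobin, at 3.34 and 27.0 CPM (-2.69). C3 and Hc reached 20 CPM in the high class only, and Saa3 and Hp in the low class only. With the transitional share held, as described below, 1 of the 2 higher and 2 of the 2 lower genes of the list passed.

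The neutrophil-attracting chemokines Cxcl3 and Cxcl5 were at 328 and 54.0 CPM (2.58) and at 1119 and 201 CPM (2.47). A related ligand, Cxcl2, was at 92.5 and 49.0 CPM (0.90). Of 7 measured chemokines and cytokines, 3 were higher and 0 lower, with a median of 0.90. Both higher chemokines were lower in the last bin of Retnla share than in the bin before it: Cxcl5 was at 695, 1125, 1263 and 1051 CPM over the 4 high bins, and Cxcl3 at 157, 319, 368 and 318 CPM.

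Ion transport genes divided. Duoxa1, the maturation factor of an epithelial hydrogen peroxide-producing oxidase, was at 30.6 and 2.21 CPM (3.30), and Noxo1, an organiser subunit of another oxidase, at 119 and 51.4 CPM (1.20). Scnn1a, the alpha subunit of the epithelial sodium channel, was lower, at 14.8 and 37.0 CPM (-1.26). With Slc26a4, 3 of 9 measured genes of the list were higher and 1 lower. Duoxa1 reached 20 CPM in the high class only, and Scnn1a in the low class only.

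Of 6 measured imprinted genes 3 were higher and 1 lower. Meg3 and Rian, non-coding transcripts of one imprinted cluster, were at 253 and 32.0 CPM (2.95) and at 39.6 and 4.02 CPM (3.02), and Dlk1, a Notch-related membrane protein of the same cluster, at 46.5 and 2.48 CPM (3.77). These are the 3 higher ones, while Cdkn1c, an imprinted cell cycle inhibitor from elsewhere in the genome, was at 9.98 and 22.1 CPM (-1.07). Rian and Dlk1 reached 20 CPM in the high class only, and Cdkn1c in the low class only. Meg3 was already at 200 CPM in the cells between the limits, against 254 CPM in the last bin. Sox9, a transcription factor of the distal lung bud, was at 35.0 and 4.49 CPM (2.72), and Foxp2, a repressor also expressed in the distal lung, at 145 and 397 CPM (-1.45). Of 14 measured lineage factors these were the only ones past the limit, in opposite directions, and the median was 0.15. Sox9 reached 20 CPM in the high class only.

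Some markers of airway cells differed between the classes. Of 5 measured airway secretory markers 3 were higher and 1 lower, and of these, folds are given here for the higher ones only. Scgb1a1, the club cell secretoglobin, was at 70.3 and 6.49 CPM (3.25), but after thinning only 1.73% of Retnla-high and 0.501% of Retnla-low cells had a UMI of it (3.69% and 1.11% without thinning). Scgb3a1, a secretoglobin of the larger airways, was at 23.9 and 0.469 CPM (4.09), and Aldh1a7, an aldehyde dehydrogenase, at 128 and 42.8 CPM (1.56). The secretory marker Scgb3a2 had 0 counts in both classes. Pifo, a gene of the primary cilium and the 1 measured gene of the ciliated list, was at 31.0 and 0.536 CPM (4.38), while Foxj1, the defining factor of ciliated cells, had 1 count in each class. Bpifb1, a secreted protein of airway goblet cells, was at 27.0 and 0.268 CPM (4.46). Summed over the lists, secretory markers were at 250 and 91.7 CPM and ciliated markers at 48.2 and 18.3 CPM. Most of the secretory sum in the high class came from Scgb1a1, Scgb3a1 and Aldh1a7, and most of the ciliated sum from Pifo alone. The sums thus rest on few members of each list. Scgb1a1, Scgb3a1, Pifo and Bpifb1 reached 20 CPM in the high class only. The part of airway cells in the other differences was not tested. Cd79b, a B cell receptor subunit, was at 216 and 65.7 CPM (1.70), but its partner Cd79a had 9 and 4 counts.

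Surfactant genes were mostly alike. Of 20 measured surfactant and ATII genes, 4 were higher, 2 lower and 14 neither, with a median of 0.13. Beside Hc, Chil1 and Il33 the higher one was Sftpa1, surfactant protein A, at 10951 and 3483 CPM (1.65). Both lower ones were lysozymes, Lyz1 at 52.6 and 382 CPM (-2.83) and Lyz2 at 61.1 and 313 CPM (-2.34). Lyz1 and Lyz2 are near copies side by side on chromosome 10, so the division of reads between them is uncertain, but both differed the same way. Among 19 lamellar body genes 0 were past the limit in either direction, among 17 fatty acid genes 1 was higher (Me1, malic enzyme, 264 and 124 CPM, 1.09), and among 17 cholesterol genes 0 were past it. The 24 measured respiratory chain genes also had 0 past the limit, with a median of 0.15. Of 7 measured MHC class II genes, of antigen presentation, 0 were past the limit, with a median of 0.39. Summed over that list, levels were 4058 CPM in Retnla-high and 3092 CPM in Retnla-low cells.

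Of 20 measured genes of the unfolded protein response 3 were higher, 1 lower and 16 neither, with a median of 0.45. When the share of transitional transcripts is held, as described below, 1 of the 3 and 0 of the 1 passed. Sdf2l1, a chaperone cofactor of the endoplasmic reticulum, was at 49.9 and 19.1 CPM (1.34), and Manf, a secreted stress factor, at 245 and 112 CPM (1.12). Sdf2l1 reached 20 CPM in the high class only. Ddit3, a factor tied to cell death under prolonged stress, was at 27.1 and 68.1 CPM (-1.30).

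On the low side stood genes of transitional cells. Of 19 measured genes of the transitional list, 12 were lower and 0 higher in Retnla-high cells, with a median of -1.20, and 5 of the 12 passed when the share of the list was held over 5 parts, as described below. S100a6, a calcium-binding protein, was at 3.60 CPM (2.81 to 4.55) and 178 CPM (171 to 185), a log2 fold of -5.28. Msln, mesothelin, was at 0.412 and 23.3 CPM (-4.11), Ndrg1, a stress- and hypoxia-responsive gene, at 5.35 and 44.7 CPM (-2.85), and Sprr1a, an envelope protein, at 5.40 and 43.9 CPM (-2.81). Krt19 was at 187 and 601 CPM (-1.68). Lgals3, galectin 3, at 105 and 465 CPM (-2.14), and Areg, the growth factor amphiregulin, at 13.5 and 64.8 CPM (-2.18), were among the 15 at this end. S100a6, Msln, Ndrg1, Sprr1a and Areg reached 20 CPM in the low class only, so they could not have been called higher.

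Type I cell genes followed. Of 14 measured, 7 were lower and 0 higher, with a median of -1.03, and 3 of the 7 passed with the transitional share held. Pdpn, podoplanin, was at 3.19 and 22.0 CPM (-2.45), Akap5, a kinase anchor, at 32.4 and 134 CPM (-2.01), and Hopx, a homeodomain protein of type I cells, at 67.9 and 252 CPM (-1.87). Outside that list, Cavin2 and Ahnak, a coat protein of caveolae and a large scaffold protein, were at 11.5 and 98.6 CPM (-3.0) and at 19.6 and 135 CPM (-2.73). Pdpn, Cavin2 and Ahnak reached 20 CPM in the low class only. Tinagl1 and Ndnf, secreted matrix proteins, were at 23.8 and 116 CPM (-2.23) and at 38.8 and 210 CPM (-2.41), and Fgfbp1, a carrier of fibroblast growth factors, at 31.5 and 139 CPM (-2.11). Tmem213, a small membrane protein, was found in many low cells: 8.14% of high and 38.4% of low cells had a UMI after thinning (16.8% and 65.6% without).

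Stress genes were also on this side. Of 25 measured genes of oxidative stress and metallothionein, 13 were lower and 0 higher, with a median of -1.05, and 7 of the 13 passed with the transitional share held. Gsta1, a glutathione transferase with near copies, was at 2.88 and 66.1 CPM (-4.11), Mt2 and Mt1, metallothioneins, at 51.2 and 316 CPM (-2.60) and at 581 and 2382 CPM (-2.03), and Hmox1, heme oxygenase 1, at 57.9 and 288 CPM (-2.30). Gsta1 reached 20 CPM in the low class only. Of 26 glycolysis and hypoxia genes 9 were lower and 0 higher (median -0.79), of which 1 passed with the transitional share held, led after Ndrg1 by Vegfa, the vascular growth factor, at 28.0 and 74.6 CPM (-1.38). Of 14 p53 and cell cycle inhibitor genes 5 were lower and 0 higher (median -0.84), among them Gadd45b, a stress-induced growth arrest gene, at 159 and 413 CPM (-1.37), and 0 of the 5 passed with the transitional share held. Malat1, a nuclear RNA that marks nuclear content, was at 4294 and 7166 CPM (-0.74), and 0 of the 9 nuclear and mitochondrial quality genes were past the limit.

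**Figure D3:**
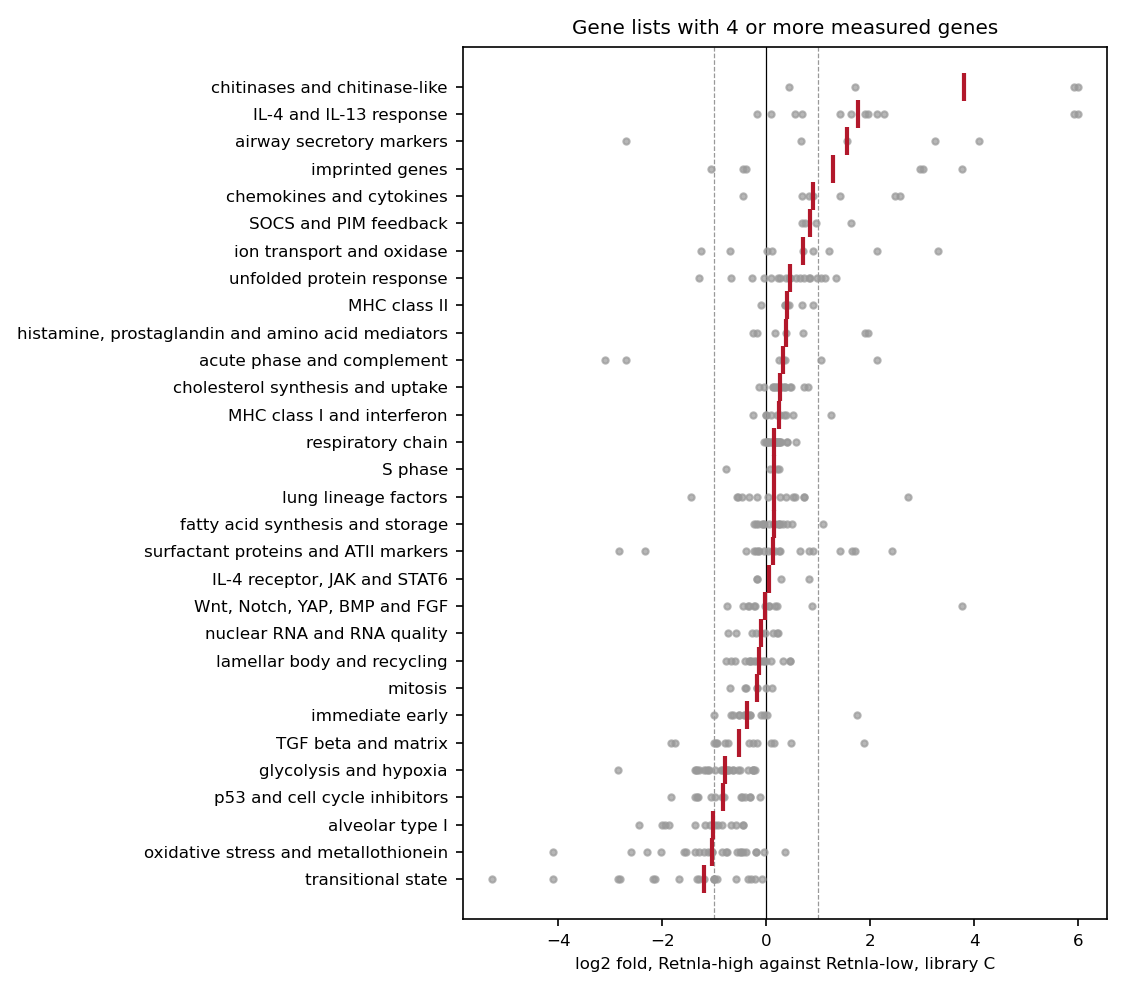
Log2 fold of Retnla-high over Retnla-low cells in library C (x axis) for the measured genes (grey points) of each list with 4 or more of them, with the list's median as a red bar and dashed lines at -1 and 1. Medians run from -1.20 for the transitional list to 3.80 for chitinases and chitinase-like genes, and some genes stand in more than 1 list.

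The share of UMIs from the transitional list differed between the classes, with a median of 0.302% in Retnla-high and 0.447% in Retnla-low cells. Over bins of Retnla share, it was 0.451% and 0.441% in the low bins, 0.553% between the limits and 0.396%, 0.316%, 0.302% and 0.291% in the high bins. Cells of both classes were divided into 5 equal parts by this share, which held 1574, 1449, 1317, 1118 and 442 high cells and 564, 689, 819, 1021 and 1696 low cells from the lowest share to the highest. The highest part ran from 0.587% to 4.95%, so within it the share was held only loosely. The classes were then compared with each of the 5 parts given equal weight. Genes higher numbered 99 (2.17% of 4570) and genes lower 63 (1.38%). Of the 114 genes called higher, 94 (82.5%) also passed in this form, and of the 129 called lower 62 (48.1%) did. In cells under the median share of 0.350% (3701 high, 1643 low), 100 genes were higher (2.18% of 4586) and 31 lower (0.676%). There 87 of the 114 (76.3%) and 29 of the 129 (22.5%) passed, and 5 of the 129 changed sign. Of the genes called lower 12 are on the transitional list itself and so are low by construction in cells with little of it; outside the list, 57 of 117 (48.7%) passed over the 5 parts and 28 of 117 (23.9%) under the median. Folds of single higher genes moved both ways under the median share: Chia1 was at 7.25, Fxyd4 at 5.24 and Slc26a4 at 1.66.

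Individual genes show both behaviours. Chia1 was at 1672, 1740, 1700, 1908 and 1602 CPM in Retnla-high cells over the 5 parts, and at 5.25, 10.9, 9.86, 26.8 and 48.8 CPM in Retnla-low cells. Its level in the low class was thus greater where the transitional share was greater. Slc26a4 in high cells went from 275 through 225, 218 and 172 to 137 CPM, and in low cells from 75.3 through 79.0, 65.2 and 44.1 to 23.4 CPM, a log2 fold of 1.5 to 2.5 in each of the 5 parts. Socs2 kept a log2 fold of 1.32 to 1.68.

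S100a6, itself on the transitional list, was near the floor in both classes in the lowest part, at 1.20 and 2.33 CPM, and at 26.2 and 506 CPM in the highest. In cells under the median share its log2 fold was -0.29. Hmox1 was -0.34 there, Gsta1 -0.45, Lgals3 -0.79 and Mt1 -0.94, all within the limit. Lyz2 did the reverse: its level was 105, 67.5, 47.9, 22.4 and 23.2 CPM in high and 726, 595, 319, 215 and 105 CPM in low cells, and its log2 fold under the median share was -2.84. Lyz1 (-3.39), Hp (-3.06), Saa3 (-3.39), Cavin2 (-2.35), Ndnf (-2.07), Tmem213 (-1.96) and Foxp2 (-1.66) were also past the limit there.

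**Figure D4:**
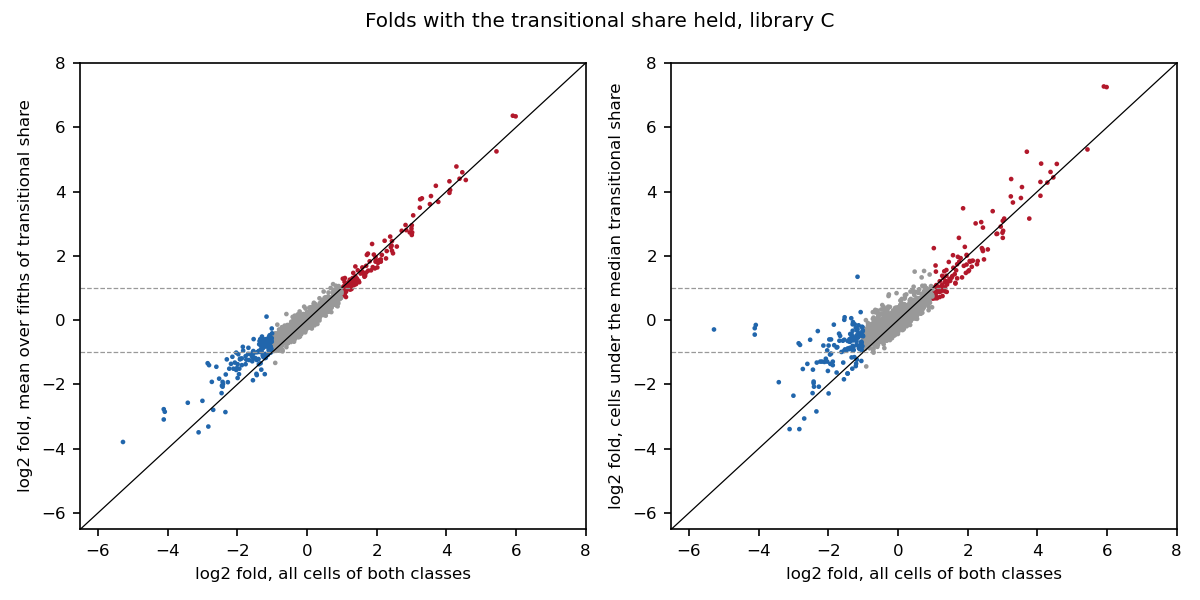
Log2 fold of each measured gene in library C over all cells of both classes (x axis) against the mean over 5 parts of transitional share (left, y axis) and against cells under the median transitional share (right, y axis), with genes called higher in red, lower in blue and neither in grey, the diagonal as a line and dashed lines at -1 and 1. Of the 114 red points 94 and 87 stay past 1, and of the 129 blue points 62 and 29 stay past -1.

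The level in the low class, as a share of that in the high class, differed between transcripts. Chia1 in low cells was at 1.52% of its level in high cells, Chil4 at 1.64% and Rgs4 at 1.90%. Retnla, counted per all UMIs, was at 0.488%, a value that the limits of the classes force to be low and that supports no result. Slc26a4 was at 22.6%, Socs2 at 32.1% and Il33 at 37.4%. The part of free RNA in the low-class counts was not tested.

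Library B was divided by the same rule, and its values are set beside those of library C without a test. It had 2064 Retnla-high cells (56.4% of 3659) and 1049 Retnla-low cells (28.7%), with 546 (14.9%) between. Depth differed more there, with medians of 8650 UMIs in high and 5707 UMIs in low cells. Of 4708 measured genes 118 (2.51%) were higher and 206 (4.38%) lower. Genes called higher in both libraries numbered 77, 67.5% of those of library C and 65.3% of those of library B, and genes called lower in both 104, 80.6% and 50.5%. Of the genes called in library C, 18 higher and 9 lower ones were not measured in library B and could not be called there. No gene was called in opposite directions. All 15 genes named at the high end and all 15 at the low end of library C were also called in library B.

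Sizes differed for some genes. Chia1 was at 1445 CPM in high and 328 CPM in low cells of library B, a log2 fold of 2.13 against 5.99 in library C, and Chil4 at 13084 and 1305 CPM, 3.32 against 5.91. Slc26a4 was at 150 and 66.4 CPM (1.16 against 2.12). Others were close: Socs2 was at 224 and 74.6 CPM (1.57 against 1.63), Cxcl3 at 783 and 139 CPM (2.48 against 2.58), Sox9 at 29.6 and 3.44 CPM (2.79 against 2.72), and Mt2 at 69.2 and 455 CPM (-2.70 against -2.60). The low class of library B thus held more Chia1 and Chil4 than that of library C, while the high class levels of Chia1 were nearer each other.

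**Figure D5:**
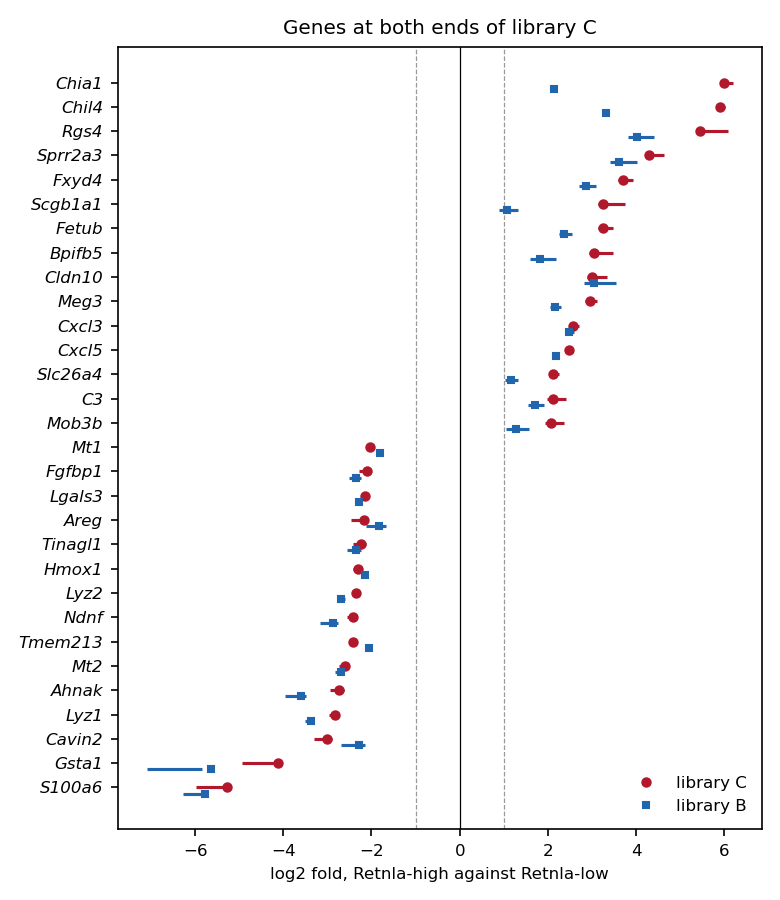
Log2 fold of Retnla-high over Retnla-low cells, with 1 CPM added, for the 15 genes named at each end of library C (points; circles library C, squares library B), with lines for the exact 95% interval of the count ratio without the added CPM, which need not be centred on the point, and dashed lines at -1 and 1. All 30 genes lie past 1 in size on the same side in both libraries, with Chia1 at 5.99 in library C and 2.13 in library B.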

How the data were processed

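Single cells of mouse lung, sorted live, were sequenced with 10x Genomics 3′ chemistry and multiplexing tags, per the labels. The labels' protocol also describes a bulk RNA extraction, whose use here is not stated. The authors deposited 1 matrix of raw UMI counts per gene and barcode, made with bcl2fastq and Cell Ranger 6.0.1 on GRCm38/mm10, per the submitters' processing notes. Their cell calling and doublet removal are not given in the sources used here. The matrix holds 0 tag features, and barcode prefixes match no label, so the whole is 1 pooled sample. Libraries are named A to C by order of appearance.

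Gene IDs were matched to GENCODE names on GRCm38 (52403 of 52636; the others hold 0.0209% of UMIs and were kept as IDs). Counts were summed per class, Retnla was left out, and sums were scaled to CPM. Folds use a pseudocount of 1 CPM. Genes needed 20 CPM in either class and a log2 fold of at least 1 in size. No test was run and no p-value is given. Intervals are exact Poisson, conditional ratio and Clopper-Pearson intervals at 95%, for counting error only.

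Named genes are the 4 markers of the comparison, IL-4 and IL-13 response genes past the limit, and the 15 highest and 15 lowest folds among genes with at least 50 CPM, 1 gene ID and the same direction past 1 on both sides of the median UMI count. From each list, up to 4 measured genes of largest fold are named. ATII markers, genes at 0, further members of the receptor, B cell and airway lists and the genes past the limit at low transitional share were named for completeness, outside that rule. One gene that this rule names is not reported here. The classes, lists and members were chosen with earlier results of these data known.

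No doublet caller was run; an alternative left out the 5% of cells with most UMIs. The 26 alternatives changed class limits, UMI minimum, depth, mitotic filter, cell quality, scaling, pseudocount, CPM minimum and transitional share. The scripts were checked on simulated counts. TMM factors came from edgeR 4.0.16 (R 4.3.3), and the rest was computed with scipy 1.17.1, pandas 2.3.3 and numpy 2.4.6 under Python 3.11.15 and drawn with matplotlib 3.10.9.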

Additional observations from a re-analysis of the deposited data

Results flagged for a closer look

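Ifitm3, an interferon-induced membrane protein, differed in direction between the libraries. Its log2 fold was 1.24 in library C, at 141 CPM in Retnla-high and 58.9 CPM in Retnla-low cells, and -0.63 in library B, at 75.6 and 117 CPM (interval of the ratio -0.76 to -0.50, counting error only). Fam107b was likewise 1.03 in library C, at 61.3 and 29.5 CPM, and -0.42 in library B, at 49.1 and 66.0 CPM (-0.59 to -0.26). Each side is 1 library, so neither difference was tested.

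Library A, in which no comparison was made, held 7 Retnla-high cells among 16180 that passed the filters. A count of 0 would allow up to 0.0185% of cells, a limit that any count over 3 passes, and whether these cells are background or carry misassigned barcodes was not tested. Their Retnla shares ran from 0.604% to 2.60%, with a median of 0.821%. Their Slc26a4 level was 656 CPM, from 20 UMIs, against 11.6 CPM in the Retnla-low cells of library A. They held 15 Chia1 and 0 Chil4 UMIs, and 0 of their barcodes also occur in library B or C.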

How the results depend on the processing

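Of 26 alternatives, 24 gave between 96 and 128 genes higher, against 114, and 22 gave between 106 and 147 genes lower, against 129. With a minimum of 50 CPM 51 genes were higher and 65 lower, and with no minimum 274 and 313. With 5 parts of transitional share weighted equally 63 were lower, and in cells under its median 31. Of 910 values for 35 named genes 0 reversed and 6 were under 1 in size. The 6 were Il4i1 at 0.95 in cells under the median UMI count, and 5 genes in cells under the median transitional share. These were S100a6, Gsta1, Hmox1, Lgals3 and Mt1. Part of this tally could not have come out otherwise. Genes named for the highest and lowest folds were chosen for being past 1 on both sides of the median UMI count. Both sides are among the 26 alternatives. A changed CPM minimum also leaves the fold of each gene as it was. The tally is therefore a description. The median of all genes stayed between -0.09 and 0.02. No paired analysis was possible because each labelled group has 1 library and the columns carry no replicate number. For the same reason no replicate could be left out. Cells of different mice, ages and treatments cannot be told apart within a class, and the depth limits statements on genes under 20 CPM. Why the counts of lower genes depend on the transitional share was not tested.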

Other observations

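Some genes below 20 CPM in both classes had counts almost only in the Retnla-high class, and were picked after their values were seen. Itln1, an intestinal lectin, had 204 counts in high and 2 in low cells. Car4, a membrane carbonic anhydrase that is also on the alveolar macrophage list, had 163 and 3 counts. Il13ra2, a receptor chain that binds IL-13, had 124 and 8. Tff2, a trefoil peptide of mucous cells, had 148 and 18 counts, while its relative Tff1 had 0 and 96.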
